A study of Mus musculus with 2 samples.

Results

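The SoxB genes measured here were Sox1, Sox2, Sox14 and Sox21, 4 of the 22368 protein-coding genes to which p300 peaks were assigned. A p300 peak was counted for a gene when its midpoint lay in the gene body or within 500 kb of the transcription start site, taken from the transcript that codes for the longest protein. By this rule 25 of the 6629 peaks belonged to the SoxB genes, 8 to Sox1, 13 to Sox2, 0 to Sox14 and 4 to Sox21. The genes lie on separate chromosomes, so no peak was counted for more than 1 of them.

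The study mapped sites bound by the co-activator p300 in Swiss Webster mice at embryonic day 14.5, in tissue of the dorsal cerebral wall, by chromatin immunoprecipitation and sequencing. The tissue held the developing neocortex, from which hippocampus, cortical hem and choroid plexus had been cut away, and so mixed progenitors with neurons. The p300 library, made with the C-20 antibody, and the input library made without antibody were 1 library each, with no replicate, and no treatment or mutation separated them. Expression was not measured, so the name progenitor factors rests on what is known of the genes and was not checked in these data.

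Sox proteins carry an HMG box that binds the minor groove of DNA and bends it. The SoxB group falls into activators that hold neural progenitors back from differentiation, the SoxB1 genes Sox1, Sox2 and Sox3, and the repressors Sox14 and Sox21 of the SoxB2 branch. p300 is a histone acetyltransferase that transcription factors bring to active enhancers, and a p300 peak far from a start site marks a candidate enhancer in the tissue sampled.

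The sequences that the results turn on are given from the plus strand of NCBIM37, which is the mm9 assembly of the peak list. For Sox1 and Sox21, the middle 200 bases of the peak nearest to the start site are shown with CpG dinucleotides in capitals, since these peaks are the closest candidate enhancers.
Sox1 peak 5829, chr8:12341191-12341390: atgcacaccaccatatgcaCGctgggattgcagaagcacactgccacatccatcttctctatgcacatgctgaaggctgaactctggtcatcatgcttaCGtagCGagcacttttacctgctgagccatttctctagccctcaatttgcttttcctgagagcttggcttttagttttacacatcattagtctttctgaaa
Sox21 peak 2088, chr14:118629314-118629513: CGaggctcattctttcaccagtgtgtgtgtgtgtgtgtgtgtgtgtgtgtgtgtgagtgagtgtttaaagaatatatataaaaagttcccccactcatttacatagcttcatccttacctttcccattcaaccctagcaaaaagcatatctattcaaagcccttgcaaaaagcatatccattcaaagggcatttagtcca
The widest peak near any SoxB gene was also the peak with the most CpG dinucleotides in the whole list, and its 200 bases richest in CpG held 23 of them.
Sox2 peak 3820, chr3:34562942-34563141: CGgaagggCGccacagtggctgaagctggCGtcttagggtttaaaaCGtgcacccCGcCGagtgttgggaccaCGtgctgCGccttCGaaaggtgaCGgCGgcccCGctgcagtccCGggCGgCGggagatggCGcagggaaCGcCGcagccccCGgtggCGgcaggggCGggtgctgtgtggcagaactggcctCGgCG
That stretch was picked for its CpG, so its number is not to be set against the middle stretches of the other peaks.

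Sox2, the SoxB1 factor of ventricular zone stem cells, had the most peaks of the SoxB genes and was the only 1 of the 4 called as having more peaks than its window length gave, beside 4.09% of all protein-coding genes. Its 13 peaks (95% exact Poisson interval 6.92 to 22.2, counting error only) stood against 2.59 given by the length of the window, a ratio of 5.02 (adjusted p = 0.000364 in an exact binomial test, one-sided, with the Benjamini-Hochberg adjustment across all 22368 genes). Sox1, which marks neural progenitors from the neural plate on, had 8 peaks (3.45 to 15.8), a ratio of 3.09, and did not pass (exact binomial adjusted p = 0.0868). Sox21, a repressor that opposes the SoxB1 genes, had 4 peaks (1.09 to 10.2), a ratio of 1.54 (exact binomial adjusted p = 1). Sox14, a repressor known from interneurons of the spinal cord and thalamus, had 0 peaks, for which the interval reached 3.69, as had 30.0% of all protein-coding genes. The authors had removed peaks at exons and those less than 2.5 kb from a start site, so the promoters and coding sequence of these genes could not show a peak.

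Of all 22368 protein-coding genes, 914 were called by this test and 6720 had 0 peaks in the window. The median gene had 1 peak, with quartiles of 0 and 3 and a maximum of 51. As many peaks as Sox2 or more were found for 219 genes (0.979%), as many as Sox1 for 1358 (6.07%) and as many as Sox21 for 5566 (24.9%). In the order Sox2, Sox1, Sox21, Sox14 the intervals of neighbours overlapped at every step, and those of Sox2 and Sox14 did not overlap. Windows of adjacent genes share peaks and peaks lie in groups, so the p covers random placement of single peaks only. The call for Sox2 was lost in a window of 100 kb, where 4 peaks gave a ratio of 7.72 (exact binomial adjusted p = 0.123), and in a regulatory domain drawn between all annotated genes, with 8 peaks and a ratio of 3.06 (exact binomial adjusted p = 0.371). In that domain, only 0.00975 Mb long for Sox1, Sox1 had 0 peaks. A domain between protein-coding genes (0.181 Mb) held 1 Sox1 peak. Without genes with model or clone names, a setting chosen after seeing the data, the Sox1 domain (0.839 Mb) held 8. Their ratio was 3.68 (exact binomial adjusted p = 0.109). Sox21 had a ratio of 0.772 in windows of 250 kb and of 1 Mb.

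**Figure D1:**
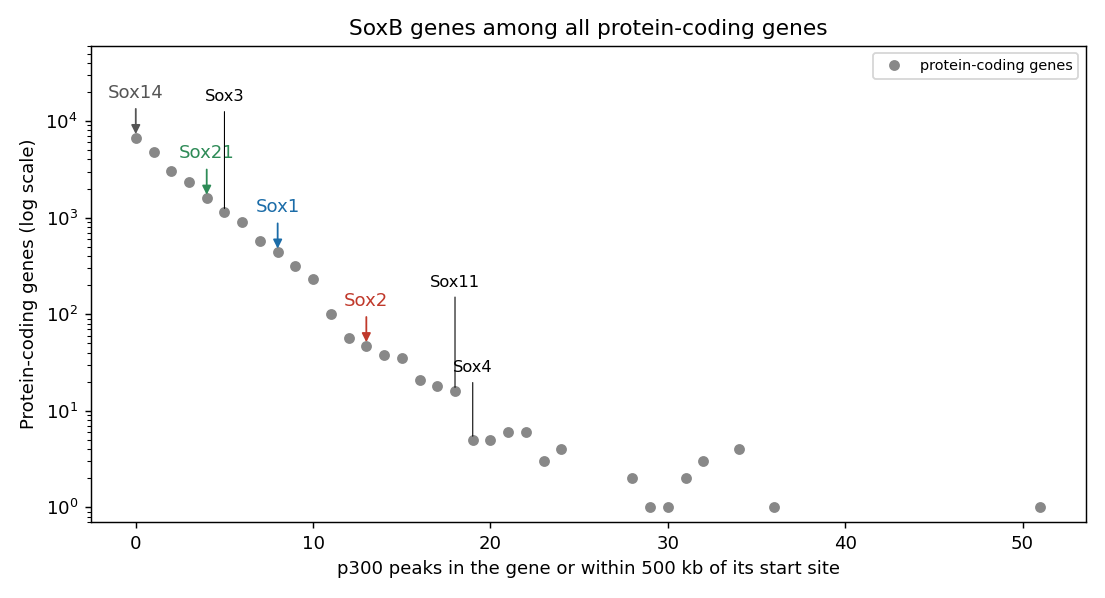
Number of protein-coding genes (vertical axis, log scale) against the number of p300 peaks in the gene or within 500 kb of its start site (horizontal axis), for 22368 genes in 1 library. Grey points are gene numbers, arrows mark the SoxB genes at 0, 4, 8 and 13 peaks, and lines mark Sox3, Sox11 and Sox4 at 5, 18 and 19.

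The bases covered by these same peaks gave the same order, and are not a measure independent of their number. Peaks in the Sox2 window summed to 18718 bp, a sum reached by 96 genes (0.429%). The Sox1 peaks summed to 9787 bp, reached by 1025 genes (4.58%), and the Sox21 peaks to 5429 bp, reached by 3390 genes (15.2%). The median over all genes was 1472 bp.

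Sox2 is a gene of 1 exon on the plus strand at chr3:34548927-34551383 (ENSMUSG00000074637). No other protein-coding start site lay within 500 kb of it, and none lay between the gene and any of its 13 peaks. Sox2 was the nearest protein-coding start site for 11 of the 13, and Dnajc19, a mitochondrial co-chaperone, was nearer to the other 2. There were 8 peaks upstream and 5 downstream, and 3 of them lay within 50 kb of the start site. The most similar windows were those of Dnajc19, which shared 8 peaks (61.5% of the Sox2 peaks and 88.9% of its own, Jaccard index, or shared peaks over all peaks of both, of 0.571), the RNA-binding protein gene Fxr1 (0.5) and the cilia gene Ccdc39 (0.143).

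The 3 nearest peaks formed a tight group downstream of Sox2. Peak 3819 had its midpoint 9.63 kb from the start site, peak 3820 (chr3:34559824-34563800) 12.9 kb and peak 3821 (chr3:34566341-34567525) 18.0 kb. They spanned 9.75 kb in all and covered 6722 bp of it, with gaps of 0.486 and 2.54 kb. Of the 6589 runs of 3 successive peaks along the chromosomes, 57 (0.865%) were at least as tight. The Sox2 group was picked as the tightest run of 3 in its window, while the runs it is ranked against were not picked. That share is therefore no measure of how rare such a group is near a gene.

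Peak 3820 was 3977 bp wide, and only 9 of the 6629 peaks, itself included, were at least as wide. It held 185 CpG dinucleotides, the most in the list, with 184 in the next. Per 100 bp it held 4.65, a density reached by 90 peaks, against a median of 1.15 over all peaks. Its ratio of observed to expected CpG, which divides the CpG count by that given by its C and G content, was 0.691 against a median of 0.228. Its midpoint lay in the body of the non-coding gene Sox2ot, and it touched no annotated exon.

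Upstream of Sox2 the peaks were spread in pairs and single peaks. Peak 3818 lay 71.7 kb upstream, and its GC content of 36.1% was the lowest near a SoxB gene. Peaks 3816 and 3817 lay 145.9 and 140.7 kb upstream, 3.76 kb apart, and peak 3816 (chr3:34401971-34404057) was 2087 bp wide. Peaks 3814 and 3815 lay 192.8 and 184.4 kb upstream, with 7.47 kb between them. Peak 3813 stood alone at 238.3 kb, and peaks 3811 and 3812 lay at 327.3 and 318.5 kb. Downstream, peaks 3822 and 3823 stood alone at 247.6 and 434.6 kb. Peak 3823 was the outermost counted, and the next peak outside the window lay 683.6 kb from the start site.

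Sox2ot, a long non-coding gene on the same strand that holds Sox2 within its body (chr3:34003360-34581541, 578.2 kb), contained 11 of the 13 peaks. Among 1273 annotated lincRNA genes, 60 held a peak, 3 held at least 11 and the highest number was 12. These numbers were not scaled to gene length, and a longer gene has more room for peaks. Of the Sox2 peaks, 1 touched an exon of Sox2ot (peak 3817) and 1 an exon of Gm20446 (peak 3811), and the other 11 touched no exon of the annotation used here.

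Sox1 had its start site at chr8:12395519 on the plus strand, found by the single exact match of its RefSeq promoter, 300 bases taken from build GRCm38.p6, in the mm9 sequence. It had 7 peaks upstream and 1 downstream, all between genes, and none lay within 50 kb. The nearest, peak 5829 (chr8:12340904-12341677), lay 54.2 kb upstream, with peak 5828 (chr8:12338814-12340374) only 0.529 kb from it. Around the start site 206.1 kb held no peak, a gap longer than 60.5% of the 6609 gaps between neighbouring peaks in the list. A long gap is more likely than a short one to hold a given start site, so this rank is not a share over genes.

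A group of 3 peaks lay farther upstream of Sox1. Peak 5825 (chr8:12125952-12128480) lay 268.3 kb away, peak 5826 259.5 kb and peak 5827 257.4 kb, and they spanned 12.7 kb. A span as short was found for 103 of the 6589 runs of 3 peaks (1.56%). Here too the group was picked as the tightest run of 3 in the Sox1 window, so the share does not measure its rarity. Peak 5825 was 2529 bp wide, the widest near Sox1, and 72 peaks of the list were at least as wide. Peak 5824 lay 307.9 kb upstream and peak 5830 152.9 kb downstream. Peak 5823 lay 499.0 kb upstream, just inside the window, and the next peak outside was 1032.9 kb away.

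Other genes lay closer than Sox1 to all of its peaks. Sox1 was the nearest protein-coding start site for 0 of the 8, and 1 peak, the downstream peak 5830, had no other start site between it and the gene. These counts took in genes with model or clone names. In a regulatory domain drawn without such genes, Sox1 held all 8 peaks. The window held 5 other protein-coding start sites, of A230072I06Rik, Gm5607, Spaca7, the centrosome protein gene Tubgcp3 and the lipid flippase gene Atp11a. The gene model Gm5607 (chr8:12385771-12436729) started 9.75 kb upstream of Sox1, spanned it and held 0 peaks. The windows of A230072I06Rik and Gm5607 held the same 8 peaks as Sox1, a Jaccard index of 1, and that of Spaca7 held 7 of the 8, an index of 0.875.

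Sox21 lies on the minus strand of chromosome 14 (ENSMUSG00000061517, chr14:118632454-118636252) and had the nearest peak of any SoxB gene. Peak 2088 (chr14:118628420-118630408) lay 5.90 kb downstream of the start site, between genes. It was 1989 bp wide, with 294 peaks at least as wide, and held 45 CpG dinucleotides, with 217 peaks holding as many or more.

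The other 3 Sox21 peaks lay upstream, in introns of Abcc4, a membrane transporter gene. Peak 2089 lay 270.6 kb from the start site, peak 2090 330.4 kb and peak 2091 373.2 kb. Between peaks 2088 and 2089, a stretch of 274.9 kb with Sox21 in it held no peak. Peak 2091 was the outermost counted, and the next peak outside lay 1278 kb away. The start site of Gm9376, 31.1 kb upstream of Sox21, lay between these 3 peaks and Sox21, and Abcc4 had the nearest start site for each. The windows of Abcc4, Gm9376 and Gpr180 held the same 4 peaks as Sox21, so the count does not tell these genes apart. The lincRNA gene Gm4675 begins within the Sox21 body on the opposite strand and held 0 peaks.

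Sox14 (ENSMUSG00000053747, minus strand, chr9:99774644-99776663) lay in a stretch of 1444 kb with no peak, from chr9:99013661 to chr9:100458096. No base of the stretch was unassembled. Of 6609 gaps between neighbouring peaks, 355 were at least as long, and the median gap was 126.9 kb. This rank is over gaps and not over genes, and long gaps take in more start sites than short ones. The nearest peak lay 681.9 kb upstream of Sox14. The window held 7 other protein-coding start sites, all downstream, among them the tight junction gene Cldn18 at 166.2 kb and the Ras-related gene Mras at 439.5 kb. A count of 0 peaks is a statement on this list, in which the reads under each peak are not known, and p300 binding below the calling threshold was not measured here.

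**Figure D2:**
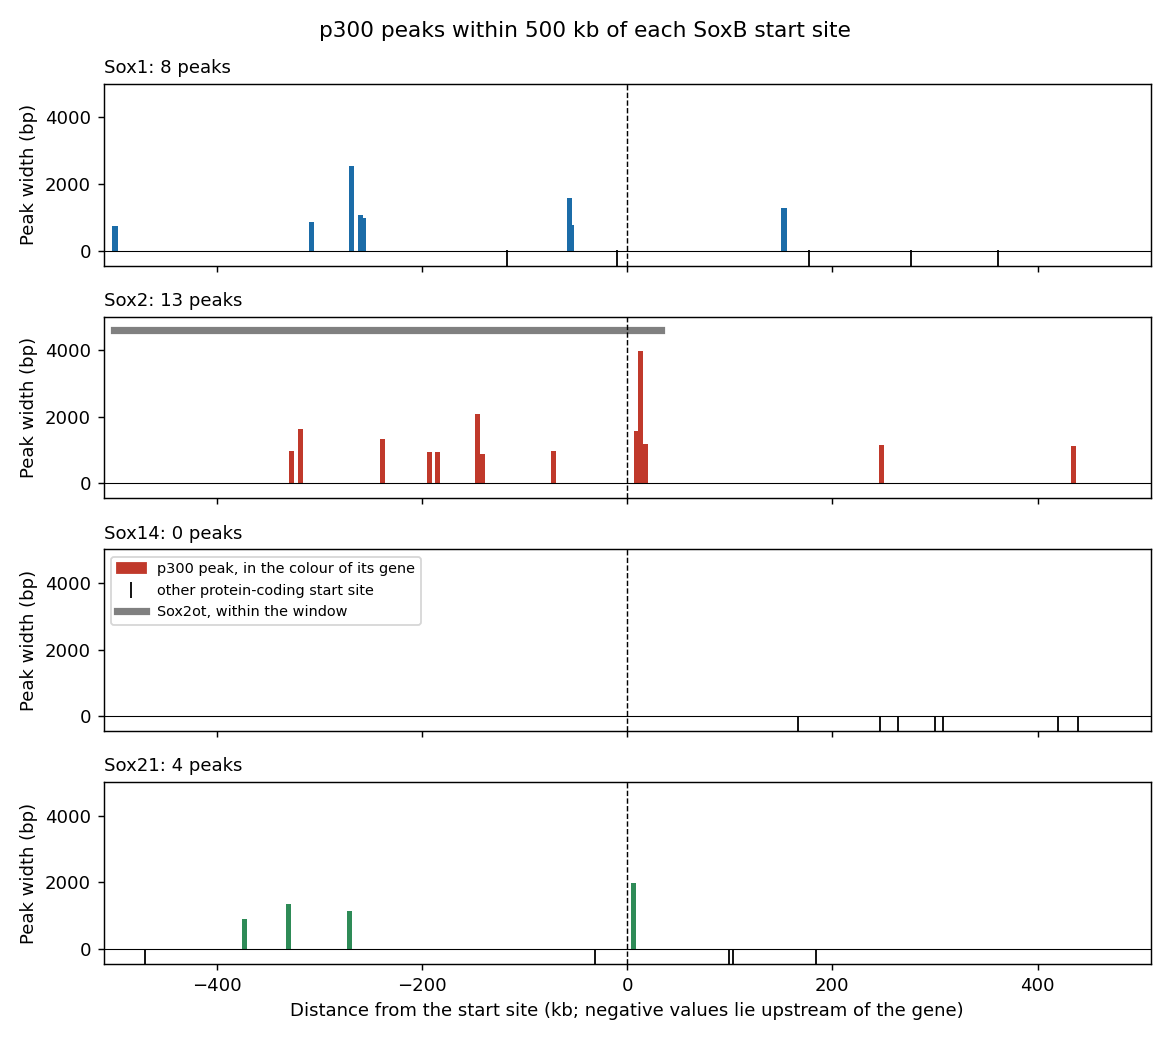
Distance of each p300 peak from the start site in kb (horizontal axis, negative upstream of the gene) and peak width in bp (vertical axis) for the 4 SoxB genes, 1 panel each. Bar height is the peak width and bar thickness is not to scale. Black ticks are other protein-coding start sites and the grey bar is Sox2ot. The tallest bar, 3977 bp, stands 12.9 kb downstream of Sox2, and the Sox14 panel holds no bar.

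Peaks near SoxB genes spanned widths near those of the whole list. Their median width was 1156 bp (735 to 3977 bp, n = 25), against 1017 bp (367 to 5243 bp) over all 6629 peaks, and 15 of the 25 were at least as wide as that median. By gene the medians were 1018 bp for Sox1, 1164 bp for Sox2 and 1263 bp for Sox21. GC content had a median of 46.2% against 45.2% over all peaks. A distance above 50 kb from the nearest protein-coding start site was found for 18 of the 25 (72.0%) and for 63.7% of all peaks.

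CpG density was above the median of all peaks in 20 of the 25. The median near SoxB genes was 1.63 CpG per 100 bp against 1.15 over all peaks. Sox21 had the highest median, 2.47, with 4 of its 4 peaks above the overall median, and its peak 2091 reached 3.17. Sox1 had a median of 1.56 with 7 of 8 above, and Sox2 had 1.63 with 9 of 13 above. Among the Sox1 peaks, peak 5823 was densest at 2.86.

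**Figure D3:**
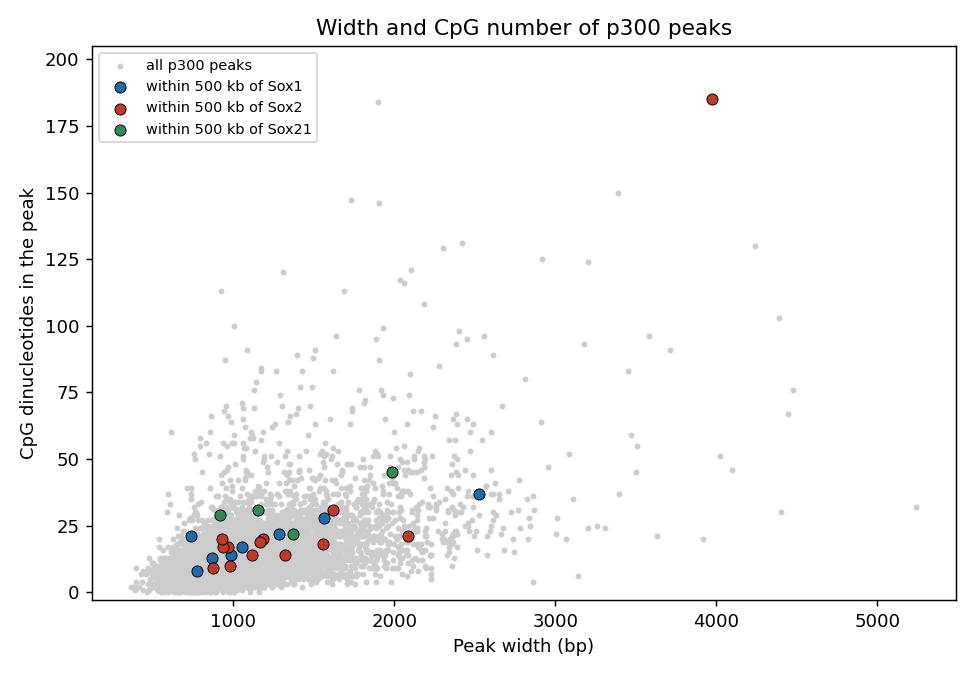
CpG dinucleotides in each p300 peak (vertical axis, count) against the width of the peak in bp (horizontal axis). Grey points are all 6629 peaks, and blue, red and green points are the peaks of Sox1, Sox2 and Sox21. The red point at 3977 bp and 185 CpG is peak 3820.

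Short words known as cores of binding sites were counted in the peaks on both strands, as a description with no test, and a match is not a bound site. They were CCATTGT or CCTTTGT for Sox, ATGCAAAT for the octamer of POU factors, CAGCTG or CAGATG for proneural bHLH factors, TAATTA for LIM homeodomain factors, CTTTGAT for Tcf/Lef, GTGGGAA for the Notch effector Rbpj, and TTGGC and GCCAA separated by 5 bases for an Nfi dimer. The Sox word CCTTTGT and the Tcf/Lef word share the letters CTTTG and differ in the base after them. The share for each word is given beside that of all peaks and of regions of the same length 10 kb downstream of every peak. A wider peak has more room for a word, so counts in the middle 500 bp of each peak are given too, a setting chosen after seeing the data for all but the Sox words.

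The octamer, which POU partners of Sox2 such as Pou3f2 recognise, was found in 6 of the 25 peaks (24.0%), against 12.9% of all peaks and 7.78% of the downstream regions. Of these, 5 belonged to Sox2 and 1 to Sox1, and no Sox21 peak held it. In the middle 500 bp it was in 2 of the 25 (8%) and in 7.60% of all peaks, so the higher share was not seen there. Sites per kb over whole peaks were 0.177 against 0.132. Whether peak width accounts for the higher share was not tested. The 5 Sox2 sites are shown with 20 bases on each side and the octamer, on either strand, in capitals.
Sox2 peak 3811, chr3:34221389-34221436: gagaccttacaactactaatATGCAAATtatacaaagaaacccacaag
Sox2 peak 3812, chr3:34231120-34231167: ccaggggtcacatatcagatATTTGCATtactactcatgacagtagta
Sox2 peak 3815, chr3:34364426-34364473: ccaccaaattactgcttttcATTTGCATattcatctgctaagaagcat
Sox2 peak 3821, chr3:34567211-34567258: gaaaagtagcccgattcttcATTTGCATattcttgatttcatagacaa
Sox2 peak 3823, chr3:34983227-34983274: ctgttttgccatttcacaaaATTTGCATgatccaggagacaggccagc
The site in peak 3821 lay in the group of 3 peaks downstream of Sox2, and that in peak 3815 lay 47 bp from the middle of its peak.

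The Sox words were found in 8 of the 25 peaks (32.0%), near the share in all peaks (37.5%) and in the downstream regions (34.6%), and in the middle 500 bp in 5 of 25 against 20.7% of all peaks. They fell in 4 of 8 Sox1 peaks, 1 of 13 Sox2 peaks and 3 of 4 Sox21 peaks, and the 3 peaks just downstream of Sox2 held none. Peak 2090, in an intron of Abcc4, held a pair of sites at its middle, shown here with the words in capitals as the nearest to a peak midpoint in the Sox21 window.
Sox21 peak 2090, chr14:118965599-118965645: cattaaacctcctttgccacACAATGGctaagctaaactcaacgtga
Sox21 peak 2090, chr14:118965639-118965685: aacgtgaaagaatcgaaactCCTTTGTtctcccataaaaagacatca
Sox2 peak 3823, chr3:34983948-34983994: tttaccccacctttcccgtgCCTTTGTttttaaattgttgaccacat
The last line is the single Sox site near Sox2. Its peak, 3823, was the only 1 of the 25 with a Sox word and an octamer (348 of all peaks, 5.25%), and they began 721 bp apart.

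The bHLH words of proneural factors such as the neurogenins were found in 24 of the 25 peaks (96.0%), against 88.6% of all peaks and 73.4% of the downstream regions, and in 13 of 13 Sox2 peaks. In the middle 500 bp the direction turned, with 17 of 25 (68.0%) against 74.1% of all peaks, and sites per kb were 1.86 against 2.08. TAATTA was found in 13 of 25 (52.0%, against 46.7% and 29.9%), of which 7 were Sox2 peaks, and in the middle 500 bp in 11 of 25 (44.0%) against 31.3% of all peaks. The Rbpj word was found in 8 of 25 (32.0%, against 22.6% and 19.6%), 4 of them near Sox1, but in the middle 500 bp in 2 of 25 (8%) against 11.0% of all peaks, and sites per kb were 0.236 against 0.233. The Tcf/Lef word was found in 6 of 25 (24.0%, against 17.6% and 19.2%), none of them near Sox21, and in the middle 500 bp in 4 of 25 (16.0%) against 8.21% of all peaks. The Nfi dimer was in 0 of 25, in 0.362% of all peaks and in 0.0302% of the downstream regions.

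**Figure D4:**
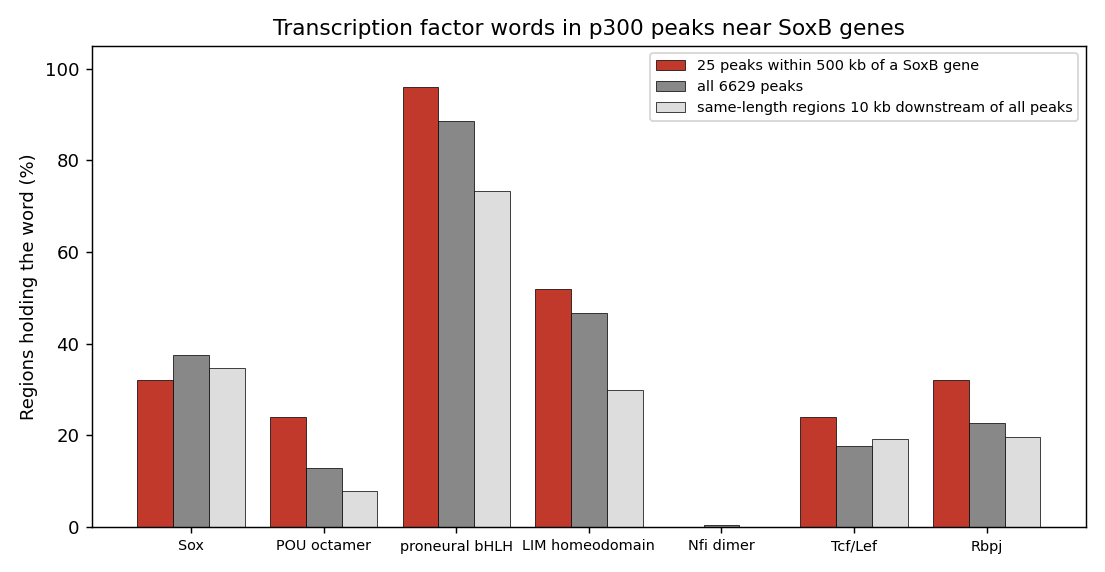
Share of regions holding each transcription factor word on either strand (vertical axis, percent) for 7 kinds of word. Red bars are the 25 peaks near SoxB genes, dark grey bars all 6629 peaks and light grey bars regions of the same length 10 kb downstream of each peak. The octamer stands at 24.0% in red and 12.9% in dark grey, and the Sox words at 32.0% and 37.5%. These are shares over whole peaks, and in the middle 500 bp the octamer was in 8% and 7.60%.

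The third SoxB1 gene, Sox3 on the X chromosome, had 5 peaks, a ratio of 1.95 (exact binomial adjusted p = 0.684). Among the 16 Sox genes other than the 4 above, 4 were called (4.09% of all protein-coding genes were), 3 had 0 peaks (30.0% of all did) and the median was 4.5 peaks (range 0 to 19). The SoxC genes, which act in differentiating neurons, made up 3 of the 4 called genes: Sox4 had 19 peaks, Sox11 had 18 and Sox12 had 10 (exact binomial adjusted p = 2.59e-08, 1.42e-07 and 0.0131). The SoxD gene Sox5, which acts in deep-layer projection neurons, was called with 10 peaks (exact binomial adjusted p = 0.0222). Sry, the endodermal gene Sox17 and the testis gene Sox30 had 0 peaks. The median ratio of peaks to the window's share was 2.32 over the 4 SoxB genes, 1.75 over the other 16 and 0.402 over all protein-coding genes.

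Among 12 genes that SoxB1 factors are known to act with or on in progenitors, 2 were called, 1 (Pou3f4) had 0 peaks and the median was 3 peaks. Chd7, a chromatin remodeller that binds with Sox2, had 13 peaks and Pax6, the cortical progenitor homeodomain factor, had 12 (exact binomial adjusted p = 0.000364 and 0.00145). Hes5, a Notch target, and Nes, the intermediate filament nestin, had 8 each and did not pass (exact binomial adjusted p = 0.0868 for both). The POU genes Pou3f2 and Pou3f3 had 3 each. The share called, 2 of 12, and that of the SoxB genes, 1 of 4, stand beside 4.09% of all protein-coding genes.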

How the data were processed

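Of the 2 libraries, the authors made 1 deposited list of p300 peaks, which gives coordinates on mm9 and a number for each peak, with no score, count or signal. The input had no file analysed here. The authors aligned the reads with ELAND, keeping unique alignments, called peaks over the input with MACS, given as 1.4 by the submitters' processing notes, and dropped those that met an exon, lay under 2.5 kb from a UCSC knownGene start site or mapped doubtfully. By GENCODE starts, 165 peaks of the list still had a midpoint within 2.5 kb.

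Positions were read on NCBIM37 with GENCODE vM1 (37273 genes, 22367 protein-coding). Sox1, which was not found there by name, was added from its RefSeq promoter. For each gene the peaks in the window were compared with the window's share of 2.56 Gb of the assembled sequence by an exact binomial test, one-sided, and p was adjusted across the 22368 genes by the Benjamini-Hochberg method with a threshold of 0.05. With 1 library there was no test between samples. Python 3.11.15, numpy 2.4.6, scipy 1.17.1, pandas 2.3.3 and matplotlib 3.10.9 were used, and the counting and the word search were checked on simulated data. Alternatives changed the window, start site, way of counting a peak, list, expected count, adjustment, domain, measure of distance and words.

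The genes named were the 4 SoxB genes, up to 3 protein-coding genes with the most similar peaks for each, the other Sox genes, 12 progenitor genes and non-coding genes that hold a SoxB gene or peak. Members and lists were chosen with earlier results of these data known. Proteins were not analysed here, and the sequence of the peak nearest to Sox2 is not reported here.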

Additional observations from a re-analysis of the deposited data

How the results depend on the processing

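Ratios of peaks to the window's share kept their side of the threshold and of 1 in 43 of 48 recomputed values. The tally takes in Sox14, which had 0 peaks in every alternative but the 1 Mb window (5 peaks). It also takes in settings that left the counts unchanged, so it is no measure of how stable the Sox2 call was. The Sox2 call was lost in a window of 100 kb (ratio 7.72, 4 peaks) and in a domain between all annotated genes (ratio 3.06, 8 peaks), each of which counts fewer of its peaks. In the latter the Sox1 domain spanned 9.75 kb, with 0 peaks, while between named protein-coding genes it held 8 (ratio 3.68). The Sox21 ratio fell below 1 in windows of 250 kb (0.772, 1 peak) and 1 Mb (0.772, 4 peaks). In the other alternatives, Sox2 remained called, with 10 peaks and an adjusted p of 0.0136 (exact binomial test) once peaks under 5 kb apart were joined. Sox1 passed in none, with adjusted p from 0.0849 to 1.

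The number of genes called was 914 in the main setting, 197 in windows of 100 kb, 466 in 250 kb and 1537 in 1 Mb. It was 516 with peaks joined, 459 without peaks narrower than the median, and 1573 over 37274 genes of every kind. Domains gave 255 between protein-coding genes, 251 between all genes and 240 between named protein-coding genes, the last chosen after seeing the data. Sox words were found in 5 of the 25 peaks in the middle 500 bp (20.7% of all peaks), in 4 with CCATTGT alone (15.5%) and in 7 with CCTTTGT alone (26.7%). The excess of octamer peaks was not seen in the middle 500 bp (2 of 25), though octamer sites per kb over whole peaks were 0.177 against 0.132. The bHLH and Rbpj words turned direction in the middle 500 bp (17 and 2 of 25). The 8 recomputed nearest distances changed little. Reads behind a peak are not known, so depth could not be weighed. No paired analysis was possible because there was 1 library of each kind.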
